A study of Mus musculus with 53 samples.

Results

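The xenobiotic enzymes described here are 10 mouse genes whose products alter or export foreign compounds. They are the cytochromes P450 Cyp2c55, Cyp2c65, Cyp2b10, Cyp3a13 and Cyp1a1, the carboxylesterases Ces2a, Ces2c and Ces2e, the gamma-glutamyl transferase Ggt1 and the efflux pump Abcb1a. Their rows were taken by symbol from a table of 55421 Ensembl genes, and all 10 were found with 1 identifier each. They were chosen by their measured levels with and without antibiotics in BA mice at day 30, so every value of a member in the comparisons that use BA mice at day 30 is given as a description, without a test.

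RNA of whole tissue was sequenced from 53 libraries in 11 groups, and all mice carried VilCreER, a tamoxifen-activated Cre under the Villin promoter that acts in the intestinal epithelium and not in the stroma. BA mice were BrafV600E/+ Alk5fl/fl and A mice Alk5fl/fl, where Alk5 is the TGFβ-receptor gene Tgfbr1, and mice with VilCreER alone are called WT. Proximal colon was taken at day 30 after induction from WT (n = 4), A (n = 4) and BA mice (n = 5), from BA mice given antibiotics (n = 5) and from A mice given sulindac (n = 4). The antibiotics were ampicillin (1 g/L), neomycin trisulphate (1 g/L), vancomycin (500 mg/L) and metronidazole (1 g/L) in the drinking water, begun the day after tamoxifen, and sulindac (0.4 g/L) was given for 14 days from the same day. Primary BA tumours of the proximal colon (n = 4) were set beside WT proximal colon (n = 3). Apcfl/+ tumours, which arose in the small intestine (n = 5), were set beside WT small intestine (n = 3), and Apcfl/fl small intestine at day 4 (n = 10) beside WT small intestine at day 4 (n = 6). Mice were 6 to 12 weeks old when induced, and no antibiotic-treated WT or A mice were compared here. The labels put WT small intestine and Apcfl/+ tumours on an inbred C57BL6/J background and all other groups on a mixed one. Separate numbers in the labels were taken as separate mice. In whole tissue, fewer cells of a type and less RNA per cell cannot be told apart.

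Foreign compounds absorbed from the gut are met in the epithelium by an oxidation step, carried out mainly by cytochromes P450 of the endoplasmic reticulum. Carboxylesterases hydrolyse esters and amides, and transferases follow with conjugation to sulphate, glucuronic acid or glutathione. Gamma-glutamyl transferases on the cell surface begin the breakdown of glutathione and its conjugates, and ATP-driven pumps such as P-glycoprotein, encoded by Abcb1a, return compounds to the lumen. Many of these genes are targets of ligand-activated factors, among them the aryl hydrocarbon receptor (Ahr), the pregnane X receptor (Nr1i2), the constitutive androstane receptor (Nr1i3) and PPARα (Ppara). The colonic epithelium is the surface of the body most heavily exposed to microbial metabolites.

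Levels below are read counts scaled to library totals by TMM factors and given as CPM, a share of all reads on genes, given mouse by mouse in the order of the labels' replicate numbers. Totals ran from 516985 to 32824795 reads on genes (median 18356939, the second lowest 10005066), and the level that 3 counts can show at a group's median total, called the floor, ran from 0.138 to 0.192 CPM and covers counting error only. Several libraries stood apart. BA antibiotics mouse 3 had a summed level of 7476 CPM over 8 stromal marker genes (1115 to 1587 CPM in the other 4), and Apcfl/+ tumour 2 had 39.9 CPM over 8 enterocyte genes (5434 to 8769 CPM in the other 4). The targeted transcripts could not check the labels, since Tgfbr1 stood at 33.5 to 59.8 CPM in A mice and 34.7 to 65.2 CPM in WT mice at day 30 and the deleted exons are not counted apart. Reads of the pseudogene Gm13394 were over 10 CPM in all 18 A and BA mice at day 30 and in 0 of 4 WT mice at day 30, so whatever difference between mice they mark cannot be told apart from genotype there.

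The members lie on 6 chromosomes of GRCm38, the build of the authors' alignment. Cyp2c55 (39007019 to 39042693) and Cyp2c65 (39061015 to 39093944) are neighbours on the plus strand of chromosome 19, and Ces2a (104734003 to 104741634), Ces2c (104847068 to 104854483) and Ces2e (104926260 to 104934672) share 1 stretch of the plus strand of chromosome 8. Near-identical copies limit the counts of some of them. Of the 36-base words in their exons, the length of 1 read, 46% in Ces2c occur in another gene, most in the pseudogene Ces2d-ps. So do 30.7% in Cyp2c65 (Cyp2c66), 26.4% in Abcb1a (Abcb1b) and 26.2% in Ces2a (Gm7208). Cyp3a13 and Ggt1 share 0% and Cyp2c55 shares 2.65%. Of the regulators read beside the members, Nr1i3 shares 66.9% of its words, most with Tomm40l, which limits its counts too. The strand setting of the counting is not given in the sources used here, so reads of Cyp2c55 and Gm23800, which overlaps it on the other strand, cannot be told apart.

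Promoter windows of 300 bases, from 250 bases before to 50 bases after the annotated start, were read from RefSeq on GRCm38.p6, and all 10 members matched. The 3 esterase windows are printed because the genes are neighbours of 1 family whose levels under antibiotics were unlike each other. They lie on the plus strand at chr8:104733753-104734052 for Ces2a, chr8:104926010-104926309 for Ces2e and chr8:104846818-104847117 for Ces2c. Capitals mark the run GAACTTTG, or its first 7 letters in Ces2c.
Ces2a: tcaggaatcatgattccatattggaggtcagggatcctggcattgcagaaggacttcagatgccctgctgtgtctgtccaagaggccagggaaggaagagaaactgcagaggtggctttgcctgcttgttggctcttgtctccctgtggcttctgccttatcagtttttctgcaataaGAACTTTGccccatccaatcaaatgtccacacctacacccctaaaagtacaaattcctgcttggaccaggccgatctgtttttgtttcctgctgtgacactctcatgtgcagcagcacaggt
Ces2e: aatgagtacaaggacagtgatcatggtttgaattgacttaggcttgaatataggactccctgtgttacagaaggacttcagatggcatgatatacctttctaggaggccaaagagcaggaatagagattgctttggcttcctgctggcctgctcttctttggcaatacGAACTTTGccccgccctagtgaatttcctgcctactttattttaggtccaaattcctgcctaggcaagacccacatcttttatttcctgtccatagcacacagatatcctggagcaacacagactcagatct
Ces2c: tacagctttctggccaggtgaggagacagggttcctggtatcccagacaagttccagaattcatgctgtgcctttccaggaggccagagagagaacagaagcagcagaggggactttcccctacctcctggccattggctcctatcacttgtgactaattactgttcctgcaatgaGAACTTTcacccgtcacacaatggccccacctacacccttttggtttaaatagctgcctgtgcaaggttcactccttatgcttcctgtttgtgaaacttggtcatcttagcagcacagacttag

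The run begins 72 bases before the start in Ces2a and 82 bases before it in Ces2e. It was chosen after the sequences were read, lies on either strand of 1.04% of 32851 promoter windows of the same length, and was also found in Abcb1a at -179. The longest run of letters that Ces2a and Ces2e share is 17 bases (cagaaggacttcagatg), against 11 for Ces2a and Ces2c and 9 for Ces2c and Ces2e.

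The next 3 windows, also on the plus strand, belong to 3 cytochromes P450, the neighbours Cyp2c55 and Cyp2c65, shown because their levels under antibiotics were unlike each other, and Cyp1a1, shown as the classical target of the aryl hydrocarbon receptor. Capitals mark TATAAA in Cyp2c55 (chr19:39006769-39007068), an HNF4A motif, CAAAGTCCA, in Cyp2c65 (chr19:39060756-39061055) and the aryl hydrocarbon receptor core GCGTG in Cyp1a1 (chr9:57697363-57697662), each searched on both strands.
Cyp2c55: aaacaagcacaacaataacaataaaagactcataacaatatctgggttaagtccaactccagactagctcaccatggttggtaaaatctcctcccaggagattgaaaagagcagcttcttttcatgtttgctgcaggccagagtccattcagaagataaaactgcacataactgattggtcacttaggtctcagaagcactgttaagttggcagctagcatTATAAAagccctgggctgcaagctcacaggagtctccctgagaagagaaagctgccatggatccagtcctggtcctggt
Cyp2c65: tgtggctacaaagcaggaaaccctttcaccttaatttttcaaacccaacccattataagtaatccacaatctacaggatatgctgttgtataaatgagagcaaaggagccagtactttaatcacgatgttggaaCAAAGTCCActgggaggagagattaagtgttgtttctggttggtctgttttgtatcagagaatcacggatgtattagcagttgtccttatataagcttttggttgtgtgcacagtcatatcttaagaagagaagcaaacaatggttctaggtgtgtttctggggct
Cyp1a1: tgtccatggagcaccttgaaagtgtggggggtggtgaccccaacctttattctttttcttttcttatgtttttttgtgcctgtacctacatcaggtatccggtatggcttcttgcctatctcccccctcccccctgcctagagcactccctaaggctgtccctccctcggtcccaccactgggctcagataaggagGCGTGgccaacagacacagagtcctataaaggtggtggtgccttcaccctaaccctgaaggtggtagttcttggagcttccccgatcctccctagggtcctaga

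TATAAA begins 29 bases before the start of Cyp2c55 and 30 bases before that of Cyp1a1, lies also at -162 in Cyp2c65 and in 1 window of Ggt1, and is found in 13.6% of all windows. GCGTG is found at -54 in Cyp1a1 and 2 times in Cyp2b10 and in 32.4% of all windows, and CAAAGTCCA, in 0.475% of all windows, only in Cyp2c65 among the members, at -116. The half-site AGGTCA (16.3% of all windows) lies at -226 in Ces2a and 2 times in 1 of the 4 windows of Ggt1. AGTTCA (14% of all windows) lies in 2 other windows of Ggt1 and at -176 in Abcb1a, where it overlaps GAACTTTG on the other strand. AGATAA (11.2%) lies in Cyp2c55, Cyp1a1 and Ggt1. These matches are letters in a window and were not tested as binding sites.

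In WT mice Cyp2c55 led in the colon, and Cyp3a13 led in the small intestine at day 4. Per kilobase of exon, Cyp2c55, an oxidase that acts on fatty acids such as arachidonic acid, had the highest level of the 10 in WT proximal colon at day 30 (3004 ± 269 CPM per kb, SD, n = 4). It was followed by Ces2e (260 ± 39.7), Ces2a (238 ± 79.8), Cyp2c65 (216 ± 16), Abcb1a (161 ± 26.6) and Ces2c (109 ± 10.4), while Ggt1 (5.98 ± 2.56) and Cyp1a1 (0.251 ± 0.108) were low. In WT small intestine at day 4 the highest was Cyp3a13 (643 ± 299 CPM per kb, n = 6), followed by Ces2e (473 ± 77.1), Ces2a (282 ± 139) and Ggt1 (230 ± 31). In the other WT small intestine group Ces2e came first (383 ± 103, n = 3), before Cyp3a13 (307 ± 87.6).

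WT proximal colon was tested against WT small intestine within single genes. Of the 10 members 7 passed the test in edgeR (adjusted p under 0.05), against 57.4% of 19829 genes, and their median log2 fold change was -1.16, against 0.05 over all genes. Cyp2c55 was higher in colon (2649, 3913 and 1907 CPM against 86.1, 27.7 and 85.4, log2 fold change 5.54 ± 0.53 (SE), adjusted p = 0.000174), as was Cyp2c65 (1.00 ± 0.26, adjusted p = 0.0118). Cyp3a13 (log2 fold change -2.52 ± 0.26, adjusted p = 0.000206), Cyp1a1 (-3.46 ± 0.55, adjusted p = 0.00126), Ces2e (-1.62 ± 0.32, adjusted p = 0.00359) and Ggt1 (-4.53 ± 0.48, adjusted p = 0.000382) were lower in colon. Cyp2b10, the classical target of Nr1i3 in the liver, gave 4 reads over the 3 colon libraries and 10304 over the 3 of small intestine, a ratio of 3186 (95% counting interval 1244 to 11696). It gave 0 reads in the 4 WT mice at day 30. Cyp1a1, the classical target of Ahr, gave 30 and 304 reads, a ratio of 12.5 (8.60 to 18.9). Ces2a (log2 fold change -0.70, 95% interval -2.24 to 0.84), Ces2c (0.20, -0.45 to 0.85) and Abcb1a (0.28, -0.50 to 1.05) did not pass the test. The call of Cyp2c65 was lost when libraries were scaled to epithelial markers (log2 fold change 0.07, adjusted p = 0.818), which moved the median of all genes to -0.91. It was also lost between colon at day 30 and small intestine at day 4 (0.52, adjusted p = 0.157), where Abcb1a was called higher in colon (1.31, adjusted p = 0.00212). Since the labels give the WT colon and the WT small intestine different genetic backgrounds, tissue and background cannot be told apart in the first pairing. Ddx3y and Gm13394 were each over 10 CPM in 0 of 3 WT colon and 3 of 3 WT small intestine libraries, so what they mark cannot be told apart from tissue either.

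Over the 11 groups, 6 members had their highest mean in WT small intestine at day 4 (Cyp2b10, Cyp3a13, Cyp1a1, Ces2a, Ces2e and Ggt1). The highest mean was in WT colon at day 30 for 2 (Cyp2c55 and Ces2c) and in BA colon at day 30 for 2 (Cyp2c65 and Abcb1a). The lowest mean was in BA tumours for 4 members (Cyp3a13, Cyp1a1, Ces2c and Ces2e), in BA mice with antibiotics for 2 (Ces2a and Ggt1) and in Apcfl/fl small intestine for 2 (Cyp2c65 and Abcb1a). Cyp2c55 was lowest in Apcfl/+ tumours and Cyp2b10 in WT colon at day 30. Cyp2b10 had 0 reads there and 1 to 4 summed reads in each other colon group except BA tumours, so its order among these groups is not resolved. Most neighbours in these orders overlapped between mice. Of the 10 neighbouring pairs of groups per member, 0 to 2 did not overlap, and among these were BA at day 30 above WT small intestine at day 4 for Cyp2c55 and BA at day 30 above BA antibiotics for Cyp2c65. The full order for Cyp2c55 ran from WT day 30 (5993 CPM) through A sulindac (4293), A (4189), WT proximal colon (2823) and BA (1358) to WT small intestine at day 4 (237). Below these stood BA antibiotics (161), BA tumour (147), WT small intestine (66.4), Apcfl/fl small intestine (49.4) and Apcfl/+ tumour (17.6).

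With antibiotics, Cyp2c55, Ces2a and Ggt1 stood at 11.9%, 15.7% and 14.5% of their mean in untreated BA mice at day 30, while Cyp3a13 stood at 103% and the 4 other members with enough counts for the fit at 70% to 79.6%. These differences were the ground on which the genes were chosen. Of the 8 members with enough counts, 7 had a fitted value below 0, with a median log2 difference of -0.48, against 0.03 over all 16680 genes. Of these, 4 did not overlap between the groups, all lower with antibiotics, against 7.37% of all genes, and nothing is read from these counts. Over all genes, 13.1% passed the test, 750 higher and 1427 lower.

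Cyp2c55 stood at 1347, 2080, 1057, 1699 and 609 CPM in untreated BA mice and at 212, 188, 139, 126 and 139 CPM in BA mice given antibiotics. The highest treated mouse was thus below the lowest untreated one, and the fitted log2 difference was -3.08 ± 0.32 (SE, n = 5 and 5). Its chromosomal neighbour Cyp2c65, a related oxidase, stood at 573, 594, 549, 539 and 618 CPM without and at 512, 502, 337, 395 and 423 CPM with antibiotics. The groups did not overlap for Cyp2c65 either, but the difference was far smaller (-0.40 ± 0.10). Cyp3a13, an intestinal member of the drug-oxidising Cyp3a family, stood at 174 to 196 CPM without and 125 to 246 CPM with antibiotics, with treated mice on both sides of the untreated ones (0.04 ± 0.14). Cyp1a1 (0.0674 to 0.616 CPM against 0.173 to 0.886 CPM) and Cyp2b10 (0 to 0.0616 against 0 to 0.136) were at or near the floor in both groups, and no difference was detectable at this depth.

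Ces2a, a carboxylesterase, stood at 91, 155, 91.4, 226 and 36.4 CPM in untreated mice and at 16.8, 22.9, 23.5, 12.6 and 18.3 CPM with antibiotics, so that the groups did not overlap (-2.66 ± 0.45). The paralogues beside it differed less. Ces2c stood at 60.4, 53.2, 46.4, 67.6 and 47.7 CPM against 45.9, 49.6, 38.8, 28.4 and 38.4 CPM (-0.45 ± 0.15), and Ces2e at 317, 313, 277, 331 and 261 CPM against 276, 287, 216, 193 and 221 CPM (-0.33 ± 0.11). Both overlapped between the groups.

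Ggt1, which cleaves the gamma-glutamyl bond of glutathione, stood at 32.3, 50.2, 40.3, 26.7 and 35 CPM without and at 4.12, 7.98, 8.78, 1.78 and 4.02 CPM with antibiotics. Again the groups did not overlap (-2.77 ± 0.39). Abcb1a stood at 1058, 1078, 1072, 1151 and 844 CPM against 821, 934, 640, 536 and 708 CPM, with overlap between 1 untreated mouse and the highest treated one (-0.51 ± 0.14). Antibiotics mouse 4 was the lowest treated mouse for 8 of the 9 members searched, and in the untreated group mouse 5 was the lowest for 4.

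Few single marker genes were called between these groups, although the summed enterocyte levels did not overlap. Summed epithelial markers were 24152 to 27661 CPM without and 20138 to 30362 CPM with antibiotics. Summed colonocyte markers were 27400 to 31323 CPM and 20303 to 30040 CPM. Summed enterocyte markers were 1570 to 2244 CPM without and 2349 to 3702 CPM with antibiotics, and their part in the results was not tested. Of 8 colonocyte genes 2 passed the test as lower, the chloride exchanger Slc26a3 (-0.84, adjusted p = 0.00404) and the sodium exchanger Slc9a3 (-1.71, adjusted p = 0.0105). Of 6 enterocyte genes tested 1 was called higher, Fabp2 (0.77, adjusted p = 0.00303), of 5 hepatocyte genes 1 was called lower, Alb (-2.87, adjusted p = 0.0452), and none of the 8 stromal, 8 smooth muscle, 8 endothelial or 7 immune genes tested was called, although the stromal list had a median log2 fold change of 1.15. Without antibiotics mouse 3, whose stromal and hepatocyte lists were the highest of its group, the fitted differences were -3.04 for Cyp2c55, -2.79 for Ces2a and -3.07 for Ggt1, and with scaling to epithelial markers they were -3.09, -2.66 and -2.72.

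**Figure D1:**
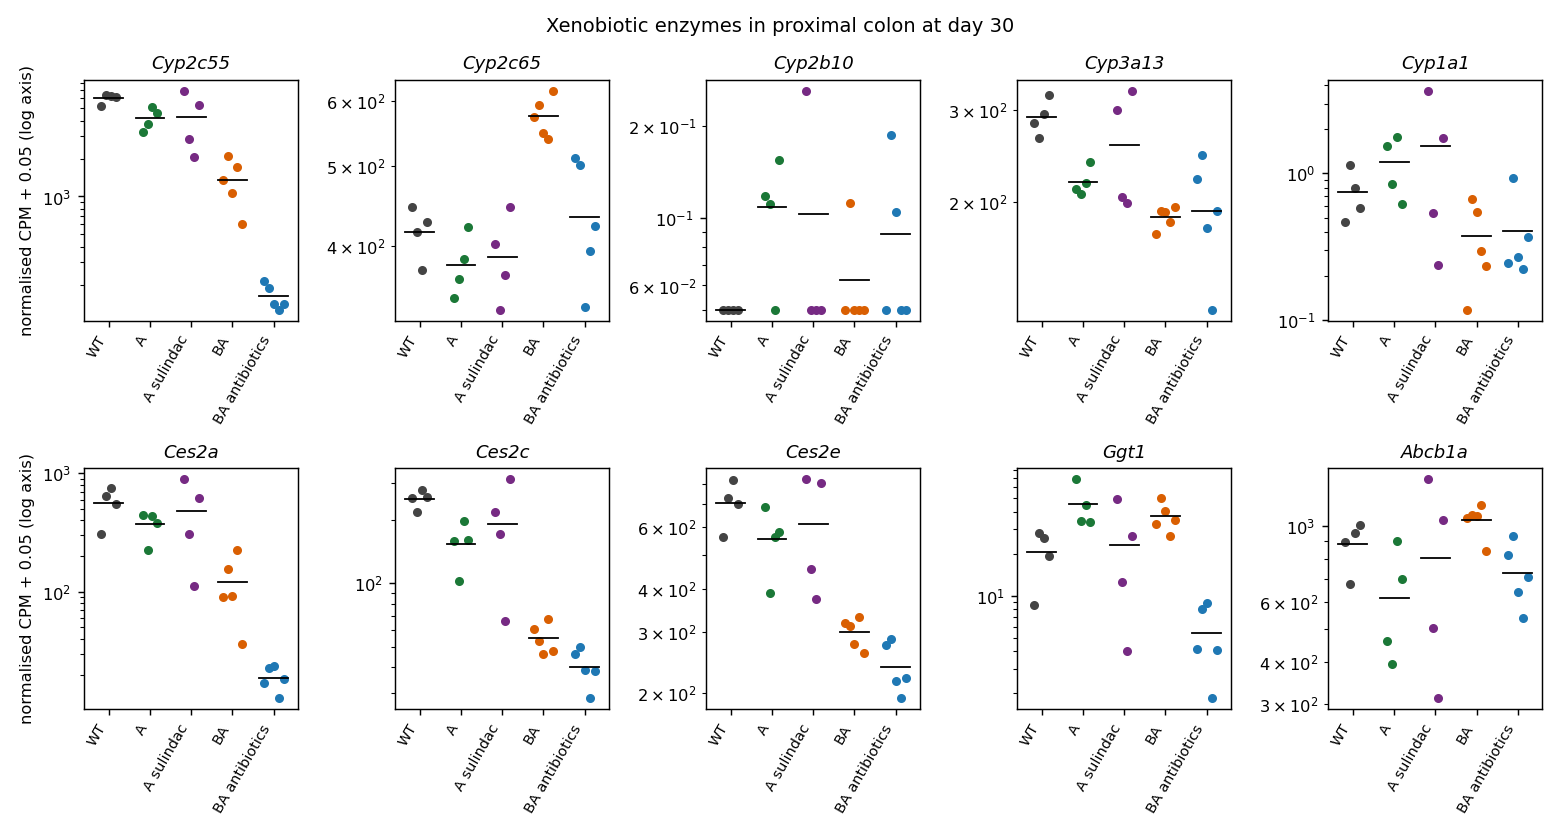
Normalised CPM (log axis, 0.05 added) of the 10 members in single mice of the 5 day-30 groups of proximal colon, with 1 point per mouse and a line at the group mean. For Cyp2c55 the 5 BA mice with antibiotics sit between 126 and 212 CPM, below the 5 untreated BA mice at 609 to 2080 CPM, which sit below the WT mice at 5208 to 6394 CPM.

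Untreated BA mice at day 30 differed from WT mice of the same day in most members, and since they are the same 5 BA libraries as above, the BA level enters both comparisons with opposite sign. BA means were 22.7% of WT for Cyp2c55, 21.3% for Ces2a, 21.9% for Ces2c, 42.7% for Ces2e and 64.7% for Cyp3a13, and 138%, 181% and 118% of WT for Cyp2c65, Ggt1 and Abcb1a. Of 8 members with enough counts, 5 were below and 3 above 0, with a median log2 difference of -0.94, against -0.03 over all genes, and 5 were lower and 1 higher without overlap, against 22.9% and 22.5% of 17471 genes. Over all genes 54.9% passed the test.

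Cyp2c55 stood at 5208, 6394, 6264 and 6106 CPM in WT mice, all above the BA mice (-2.15 ± 0.32, SE). Ces2c stood at 253, 219, 276 and 258 CPM in WT mice, all above the highest BA value of 67.6 CPM (-2.20 ± 0.12). Cyp3a13 stood at 283, 265, 295 and 320 CPM in WT mice, also without overlap (-0.64 ± 0.07), and Cyp1a1 at 0.416 to 1.1 CPM, overlapping with BA mice and too low for the fit, as was Cyp2b10 at 0. For Ces2a (308, 647, 748 and 547 CPM in WT mice, -2.24 ± 0.52) and Ces2e (563, 727, 822 and 701 CPM, -1.24 ± 0.11) the groups did not overlap either. The 3 esterases were therefore all lower in BA than in WT mice, whereas with antibiotics only Ces2a among them had a further difference without overlap.

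Cyp2c65 stood at 447, 416, 374 and 428 CPM in WT mice, below all BA mice (0.45 ± 0.07). Ggt1 stood at 8.58, 28, 25.9 and 19.2 CPM, overlapping with BA mice (0.84 ± 0.33). Abcb1a stood at 896, 676, 953 and 1008 CPM, also overlapping (0.23 ± 0.12). For these 3 genes the direction depended on scaling. Summed epithelial markers were 24152 to 27661 CPM in BA and 12367 to 14758 CPM in WT mice, and 8 of 10 of them were called higher in BA mice. When libraries were scaled to them the median of all genes became -1.02 and the values became -0.54 for Cyp2c65, -0.15 for Ggt1 and -0.78 for Abcb1a. Smooth muscle markers (4 of 8 called lower) and stromal markers (6 of 8 called lower) moved the other way, and 3 of 8 endothelial genes were called lower. Of 6 enterocyte genes 4 were called higher and 1 lower, with sums of 1570 to 2244 CPM in BA and 561 to 1376 CPM in WT mice, and of 8 colonocyte genes 2 were called higher and 4 lower. Their part in the results was not tested.

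**Figure D2:**
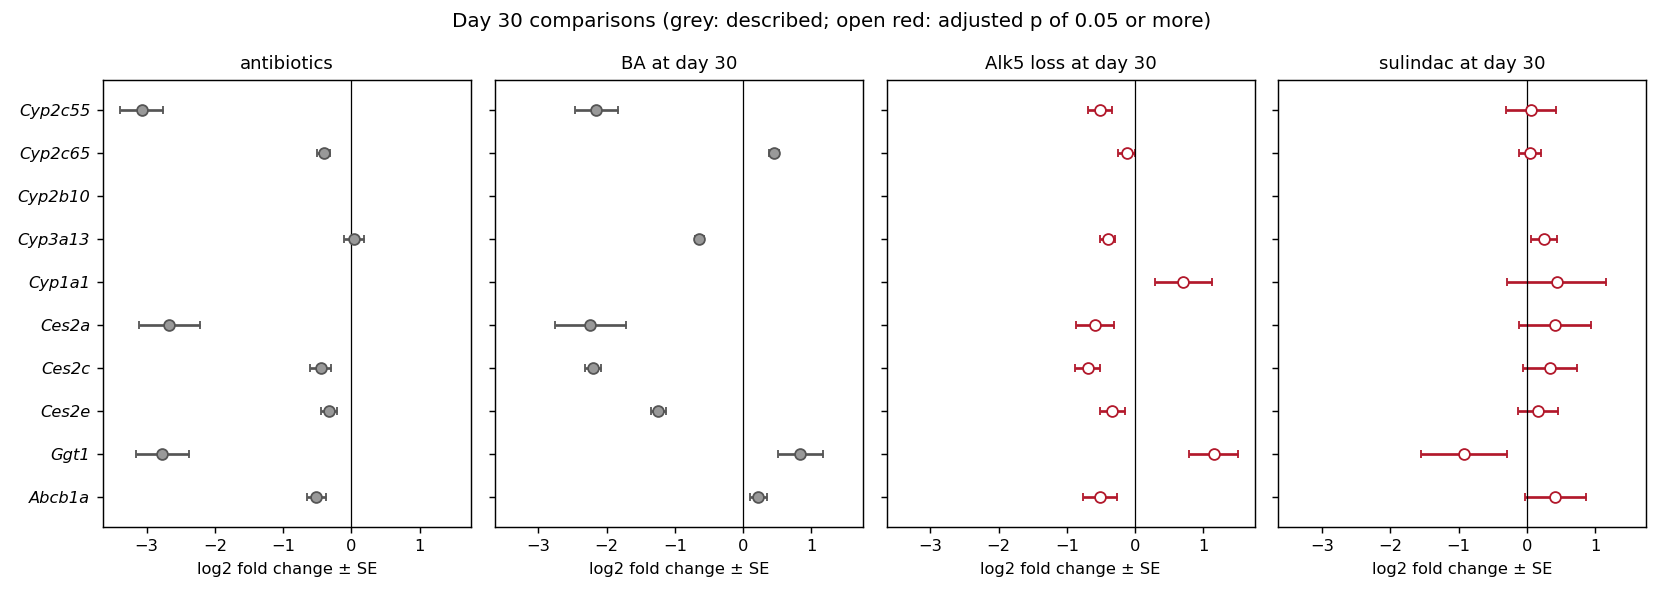
Log2 fold changes (± SE) of the members in the 4 day-30 comparisons (antibiotics minus untreated BA, BA minus WT, A minus WT, A with sulindac minus A). Grey points are descriptions without a test, open red points have an adjusted p of 0.05 or more, and members with too few counts have no point. Cyp2c55, Ces2a and Ggt1 lie between -3.08 and -2.66 with antibiotics, and Ggt1 lies above 0 in BA mice and below 0 with antibiotics.

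Set side by side, Cyp2c55 and Ces2a had negative differences in both comparisons and stood at 2.69% and 3.35% of WT in BA mice with antibiotics. Ggt1 had differences of opposite sign and stood at 26.2% of WT. Cyp2c65 stood at 104% and Abcb1a at 82.4% of WT. Ces2c (16% of WT) and Ces2e (34%) were low in BA mice with or without antibiotics.

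The comparison of A with WT mice asked whether loss of Alk5 alone changed these genes, and no member was called. Of 9 members tested 0 passed, in a comparison in which 27 of 17713 genes (0.152%) did and 1711 had an unadjusted p under 0.05, and the lowest adjusted p was 0.355, for Ces2c. Still, 4 members did not overlap between A and WT mice, against 4.69% of all genes, Cyp2c55, Cyp3a13 and Ces2c being lower and Ggt1 higher. Ggt1 stood at 68, 34.1, 44.3 and 33.8 CPM in A mice, all above the 8.58 to 28 CPM of WT mice (log2 fold change 1.15 ± 0.36, adjusted p = 0.478). Cyp2c55 stood at 3268, 3768, 5092 and 4627 CPM in A mice (-0.51 ± 0.18, adjusted p = 0.486). Cyp3a13 (-0.40, adjusted p = 0.408) and Ces2c (-0.70) were called by DESeq2, with adjusted p of 0.0219 and 0.0386. This comparison uses the same 4 WT mice as that of BA with WT mice.

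Sulindac, a non-steroidal anti-inflammatory drug, was followed by no call in any of the 9 members tested. Adjusted p was 1 for each member in edgeR, where 0 of 17568 genes (0%) passed, 446 had an unadjusted p under 0.05 and DESeq2 called 5. The 4 treated mice spread widely. Cyp2c55 stood at 6913, 2847, 2048 and 5364 CPM, Ces2a at 889, 307, 112 and 622 CPM, Ggt1 at 49.6, 12.4, 3.99 and 26.6 CPM and Abcb1a at 1368, 501, 312 and 1041 CPM. Mice 1 and 4 were above mice 2 and 3 in 9 of 9 members, and mouse 3 was the lowest in 8. Summed epithelial markers in the same order were 16696, 12137, 15187 and 13966 CPM and enterocyte markers 1188, 686, 1460 and 1280 CPM. Summed colonocyte markers ran from 15272 to 29364 CPM (median 27262) over the 4 treated mice. The part of these lists in the spread was not tested. The 95% intervals of the differences were wide, from -0.67 to 0.79 for Cyp2c55 and from -2.17 to 0.32 for Ggt1 on the log2 scale.

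In BA tumours, 3 of 8 members tested were called lower than in WT proximal colon, against 5.75% of 19188 genes called lower and 13.2% called in either direction. All 8 had a value below 0, with a median log2 fold change of -1.35 against 0.03 over all genes. Cyp2c55 fell from 2649, 3913 and 1907 CPM to 427, 21.9, 51.9 and 86.3 CPM (-4.33 ± 0.93, SE, adjusted p = 0.0185). Ces2c fell from 199, 197 and 130 CPM to 40.8, 17.4, 34.7 and 34.7 CPM (-2.48 ± 0.29, adjusted p = 0.00165), and Cyp2c65 from 288, 423 and 297 CPM to 143, 28.1, 131 and 121 CPM (-1.69 ± 0.46, adjusted p = 0.0411). For none of the 3 did tumours and WT colon overlap, as for 12.9% of all genes that were lower without overlap.

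Ces2a (359, 308 and 75.5 CPM in WT colon, 118, 11.8, 22.1 and 35.9 CPM in tumours, -2.46 ± 0.81, adjusted p = 0.0892) did not pass. Neither did Ces2e (-1.00 ± 0.32, adjusted p = 0.0724), Cyp3a13 (-0.71 ± 0.39, adjusted p = 0.277) or Abcb1a (-0.89 ± 0.51, adjusted p = 0.294). Ggt1 stood at 9.97, 49, 1.93 and 1.74 CPM in the tumours, a spread that covers the 11.9 to 35.9 CPM of WT colon (-0.47 ± 1.19, adjusted p = 0.84). Tumour 2, which had the highest Ggt1 and the lowest level of 6 of the 9 members searched, also had the highest enterocyte sum (1567 CPM, 212 to 278 CPM in the other 3). It also had the highest immune sum (1527 CPM, 537 to 1224 CPM). Cyp2b10 was at 0.18, 2.37, 0.396 and 0.365 CPM in tumours, 42 reads in all, above the floor of 0.16 CPM in 4 of 4 and above the 0 to 0.118 CPM of WT colon. It had too few counts for the fit. Cyp1a1 was at 0 to 0.0451 CPM, under the floor.

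The calls in BA tumours depended on single libraries. Ces2c was called in 12 of 13 alternatives, Cyp2c55 in 6 and Cyp2c65 in 3. The Y-linked gene Ddx3y was over 10 CPM in 3 of 4 tumours and 0 of 3 WT colon libraries. With a term for Ddx3y 0 members were called (Ces2c -2.20, adjusted p = 0.0824) and 182 genes in all. Gm13394 was also over 10 CPM in 3 of 4 tumours and 0 of 3 WT colon libraries, and its part in the results was not tested. Without BA tumour 4 or any 1 of the 3 WT libraries, only Ces2c was called, and without BA tumour 1 or 3 the call of Cyp2c65 was lost, with adjusted p of 0.0574 and 0.0682. Without BA tumour 1 Ces2a was called (-3.40, adjusted p = 0.015). Of the markers, 4 of 8 colonocyte genes were called lower, and 5 of 8 stromal and 7 of 10 immune genes higher, in the tumours, whereas 1 of 10 epithelial genes was called. Their part in the results was not tested.

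**Figure D3:**
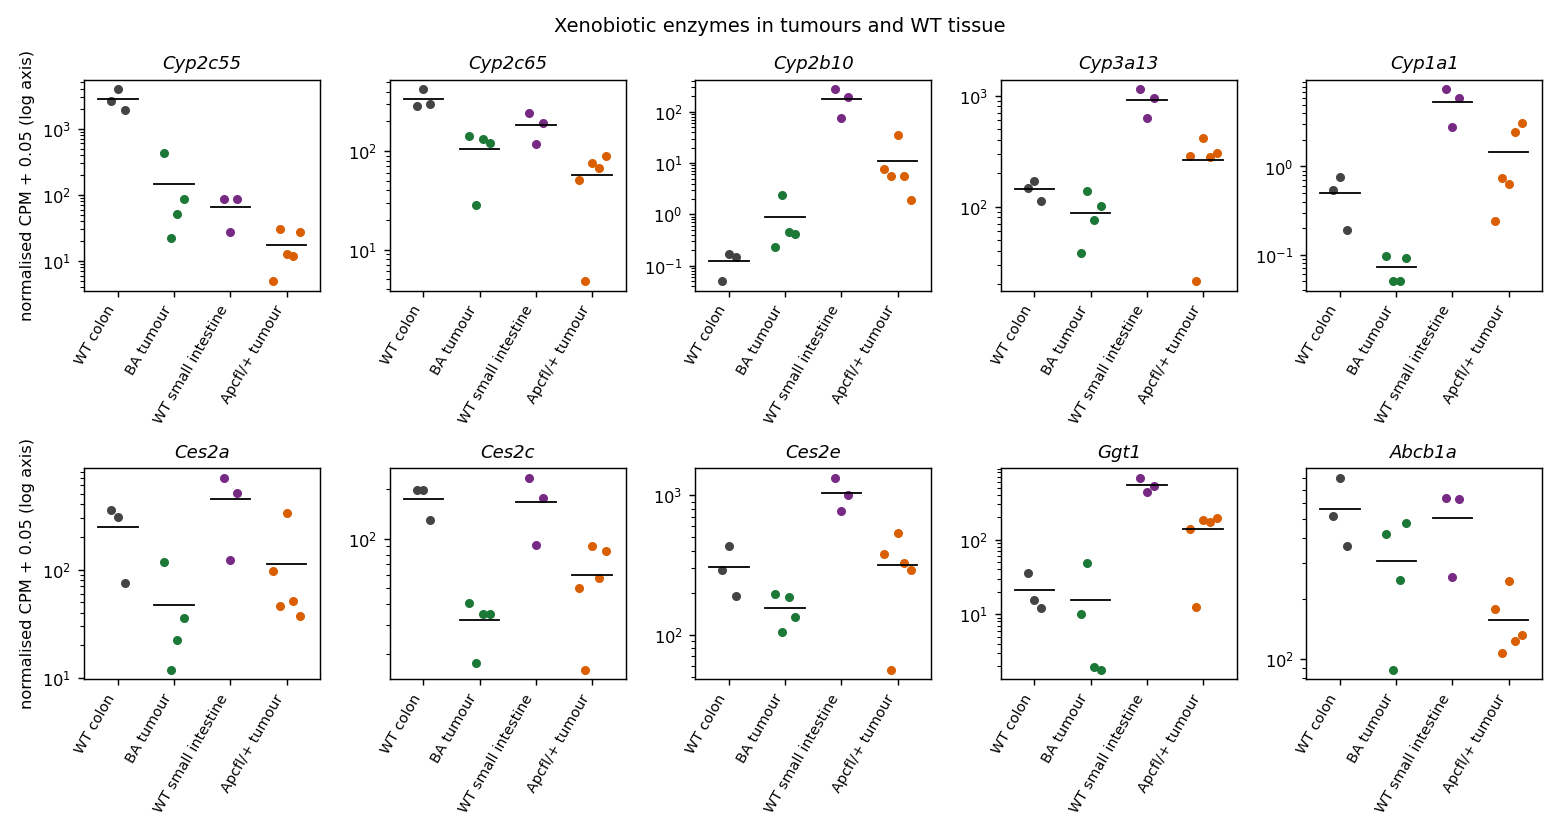
Normalised CPM (log axis, 0.05 added) of the members in single libraries of WT proximal colon, BA tumours, WT small intestine and Apcfl/+ tumours, with a line at the mean. Cyp2c55 lies at 1907 to 3913 CPM in WT colon and 21.9 to 427 CPM in BA tumours, and the lowest Apcfl/+ point for Cyp3a13, Ces2e and Ggt1 is tumour 2.

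Loss of Apc in the small intestine, which switches on Wnt signalling, was followed within 4 days by lower levels of all 10 members. All 10 were tested and called lower in edgeR, against 26.7% of 17536 genes called lower and 54.2% called in either direction. The median log2 fold change was -2.11 against 0.00 over all genes. The largest change was in Ces2a, which fell from 130 to 1166 CPM (median 681) in 6 WT mice to 4.46 to 37.8 CPM (median 19.2) in 10 Apcfl/fl mice (-5.00 ± 0.42, SE, adjusted p = 2.33e-07). Next came Cyp2b10, from 75.6 to 392 CPM (median 266) to 1.14 to 14.3 CPM (median 9.43), which is -4.91 ± 0.43 on the log2 scale (adjusted p = 3.08e-07). Cyp2c65 (-2.65, adjusted p = 2.33e-06), Ces2e (-1.88, adjusted p = 7.8e-06) and Ggt1 (-1.52, adjusted p = 1.23e-05) did not overlap between the groups either, so that 5 members were lower without overlap, against 10.3% of all genes. Cyp2c55 (-2.20, adjusted p = 0.001), Ces2c (-2.05, adjusted p = 4.66e-05), Abcb1a (-1.65, adjusted p = 0.000139), Cyp3a13 (-1.20, adjusted p = 0.00279) and Cyp1a1 (-2.17, adjusted p = 0.0165) were called and overlapped.

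Summed enterocyte markers were 3689 to 10106 CPM in Apcfl/fl and 15501 to 28711 CPM in WT mice and did not overlap, and 8 of 8 enterocyte genes were called lower. So were 6 of 8 endothelial, 4 of 10 immune and 4 of 6 colonocyte genes. The part of these markers in the results was not tested. All 10 members were also called without Apcfl/fl libraries 1 (516985 reads) and 8 (the lowest Apc level, 36.5 CPM, 111 to 147 CPM in the others), with a term for Gm13394 and with a term for Ddx3y. Leaving out library 8 and the term for Gm13394 were chosen after seeing the data. Without a filter on low counts Cyp1a1 was not called (adjusted p = 0.0583).

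In Apcfl/+ tumours, 4 of 10 members were called lower than in WT small intestine, against 29.9% of 20567 genes called lower and 61.2% called in either direction. All 10 had a value below 0, with a median log2 fold change of -1.75 against 0.03 over all genes. Cyp2b10 fell from 275, 77.4 and 193 CPM to 7.57, 5.57, 34.8, 5.66 and 1.88 CPM (-3.92 ± 0.91, SE, adjusted p = 0.00721). Abcb1a fell from 639, 257 and 627 CPM to 178, 107, 244, 123 and 132 CPM (-1.59 ± 0.35, adjusted p = 0.00449). Both were called in all 13 alternatives. Cyp2c55 (-1.82, adjusted p = 0.0337) and Ces2e (-1.59, adjusted p = 0.0381) were called in 6 and 5 of them. The other 6 members had adjusted p of 0.0502 (Ggt1) to 0.0957 (Ces2a). Of the markers, 7 of 8 stromal, 5 of 6 hepatocyte, 5 of 10 epithelial and 4 of 8 endothelial genes were called higher in the tumours. So were 2 of 7 colonocyte and 2 of 10 immune genes. Called lower were 4 of 8 smooth muscle, 4 of 10 immune and 3 of 7 colonocyte genes, with 2 of 8 enterocyte genes. Of the 10 epithelial genes 1 was called lower. The summed enterocyte level was 39.9 to 8769 CPM in tumours and 14417 to 25698 CPM in WT small intestine, without overlap. Their part in the results was not tested. Ddx3y was over 10 CPM in 3 of 3 WT small intestine libraries and 1 of 5 tumours, and its part in the results was not tested. Gm13394 was over 10 CPM in 3 of 3 and 0 of 5, so the difference it marks and the group cannot be told apart.

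Many of these p-values depended on Apcfl/+ tumour 2. It had 12.3 CPM of Ggt1 (140 to 193 CPM in the other 4 tumours), 21.4 CPM of Cyp3a13 (282 to 412 CPM) and 56.2 CPM of Ces2e (292 to 535 CPM), together with the enterocyte sum of 39.9 CPM given above. Without it 8 members were called, among them Ggt1 (-1.55, adjusted p = 2.61e-05), Cyp3a13 (-1.39, adjusted p = 0.000393), Cyp2c65 (-1.28, adjusted p = 0.00504) and Ces2c (-1.14, adjusted p = 0.03). Without Apcfl/+ tumour 4 or WT small intestine 1 or 3, only Cyp2b10 and Abcb1a were called. The call of Ces2e was also lost without WT small intestine 2 or Apcfl/+ tumour 1 or 5, and that of Cyp2c55 without Apcfl/+ tumour 3, where Ces2a was called (-2.85, adjusted p = 0.00643).

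**Figure D4:**
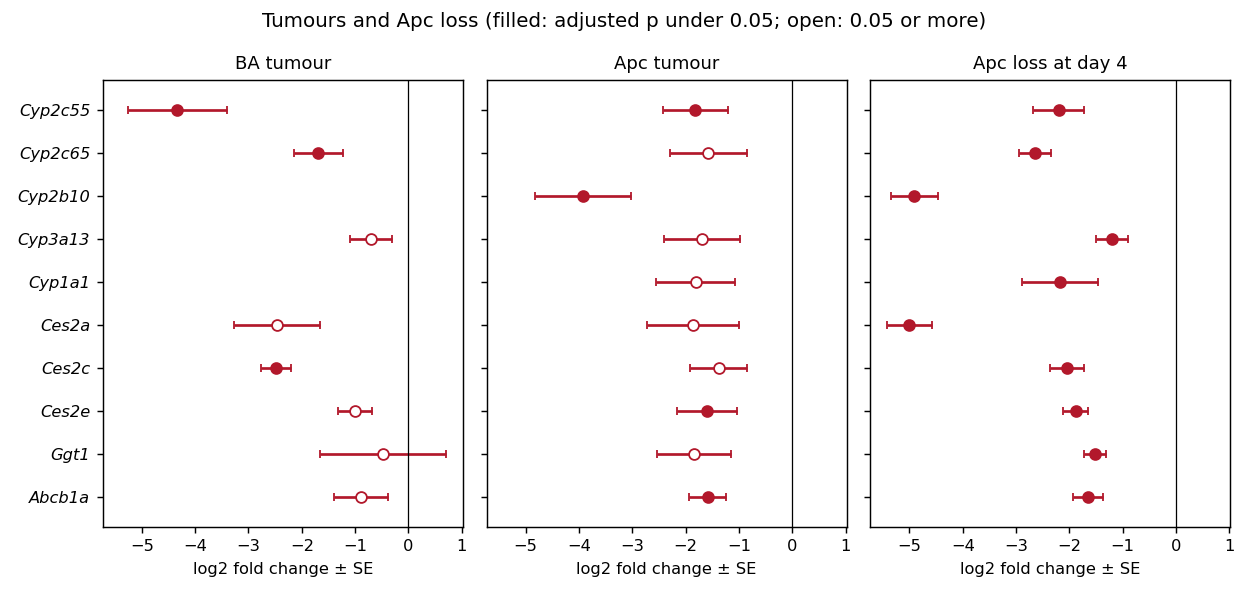
Log2 fold changes (± SE) of the members in BA tumours against WT proximal colon, Apcfl/+ tumours against WT small intestine and Apcfl/fl against WT small intestine at day 4. Filled points have an adjusted p under 0.05. All points lie below 0, and the farthest are Ces2a and Cyp2b10 after Apc loss and Cyp2c55 in BA tumours.

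The change in BA tumours was tested against that in Apcfl/+ tumours by an interaction term. Tissue and genetic background go with the tumour type in this test and cannot be told apart from it. Of 10 members 1 was called, Cyp2b10 (7.29 ± 1.91, SE, adjusted p = 0.0109), against 39.4% of 21668 genes, and the 95% intervals of the other 9 included 0 except for Cyp2c55 (-2.44, -4.78 to -0.11, adjusted p = 0.116). The Cyp2b10 value rests on the 4 reads in WT colon, so its size depends on the prior count of the fit, and without library 2 of both tumour groups, an alternative chosen after seeing the data, it was 5.98 (adjusted p = 0.0776). Without BA tumour 1 Cyp2c55 was called (-3.94, adjusted p = 0.00579), and without Apcfl/+ tumour 2 Ces2c was called (-1.30, adjusted p = 0.0367).

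A list of 169 other genes of xenobiotic metabolism was read beside the members. With antibiotics 37 of 125 tested were called, 12 higher and 25 lower (29.6%, against 13.1% of all genes), and the median log2 fold change was -0.04. In a fit of all 5 day-30 groups 18 of them were called, and 1030 of all genes in place of 2177. Oxidation and reduction gave 3 higher and 6 lower of 39, with Cyp4b1, a fatty acid oxidase, rising by 2.70 ± 0.41 from 5.89 to 38 CPM. Fmo5, a flavin monooxygenase (-1.12), Cyp2d34 (-0.83) and Por, the reductase that supplies electrons to microsomal cytochromes P450 (-0.79 ± 0.09, adjusted p = 0.000567), fell. Of 9 other ester hydrolases 3 were called, all higher, Aadac (1.28), Ces2g (0.61) and Ces1e (0.56), the direction opposite to that of Ces2a. Conjugation gave 6 higher and 12 lower of 40, with the sulphotransferases Sult1a1 (1.24) and Sult1c2 (1.00) and the glucuronosyltransferase Ugt2b5 (1.13) rising. The glutathione transferases Gstk1 (-0.78) and Gsta1 (-0.65) and the glucuronosyltransferase Ugt1a1 (-0.56) fell. In glutathione breakdown, the list of Ggt1, 1 of 8 was called, Oplah (-0.48). In transport, the list of Abcb1a, 4 of 17 were called, all lower, with Abcc4 (-0.52), Abcg2 (-0.45) and Abcc3 (-0.40) the largest.

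Of the 12 regulators, 2 were called with antibiotics, both lower, Nr1i2 (-0.30 ± 0.07, adjusted p = 0.0236) and Ppara (-0.55 ± 0.14, adjusted p = 0.0257). The aryl hydrocarbon receptor Ahr (0.15, adjusted p = 0.331), its partner Arnt (-0.10, adjusted p = 0.339) and its targets Ahrr (-0.08, adjusted p = 0.834) and Tiparp (-0.07, adjusted p = 0.581) were not called. Nor were Nr1i3 (-0.01), Rxra (0.01), Hnf4a (0.03), Vdr (-0.26), Nfe2l2 (-0.25) and Keap1 (-0.11), with adjusted p of 0.0604 to 0.982.

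In BA against WT mice at day 30, 88 of 126 of these genes were called, 21 higher and 67 lower (69.8%, against 54.9% of all genes), with a median log2 fold change of -0.48. Ester hydrolases other than the members gave 7 lower of 9, led by Ces2b (-5.09 ± 0.19), Ces1g (-4.51 ± 0.26) and Ces1d (-3.11 ± 0.25). Several genes that rose with antibiotics were among those that were lower in BA mice, Sult1a1 (-4.90), Ugt2b5 (-3.77), Sult1c2 (-3.72) and Cyp4b1 (-3.69), but both comparisons share the untreated BA libraries. Gsta2 (3.97), Gsta1 (3.83) and Gsta4 (2.45), glutathione transferases that act on products of lipid peroxidation, rose, as did the peptide transporter Slc15a1 (4.06), Cyp2d9 (1.99), the reductase Akr1b8 (1.47) and Cyp2s1 (1.05). Cyp2c66 (-3.50) and Cyp2w1 (-3.44) fell. In glutathione breakdown Dpep1 (-1.51), Ggt7 (-1.04) and Anpep (-0.90) fell and Oplah rose (0.40), and in transport Slco2b1 (-1.95), Slc47a1 (-1.56) and Abcc6 (-1.24) fell and Abcc4 rose (0.86). Among the regulators Tiparp (0.78), Hnf4a (0.69) and Nfe2l2 (0.31) were higher and Ppara (-1.42), Nr1i3 (-1.09) and Ahrr (-0.76) lower. Scaling to epithelial markers moved the median of all genes to -1.02, a larger shift than the values of Oplah, Abcc4, Tiparp, Hnf4a and Nfe2l2. Their direction may depend on it, and their values with that scaling are not given here.

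**Figure D5:**
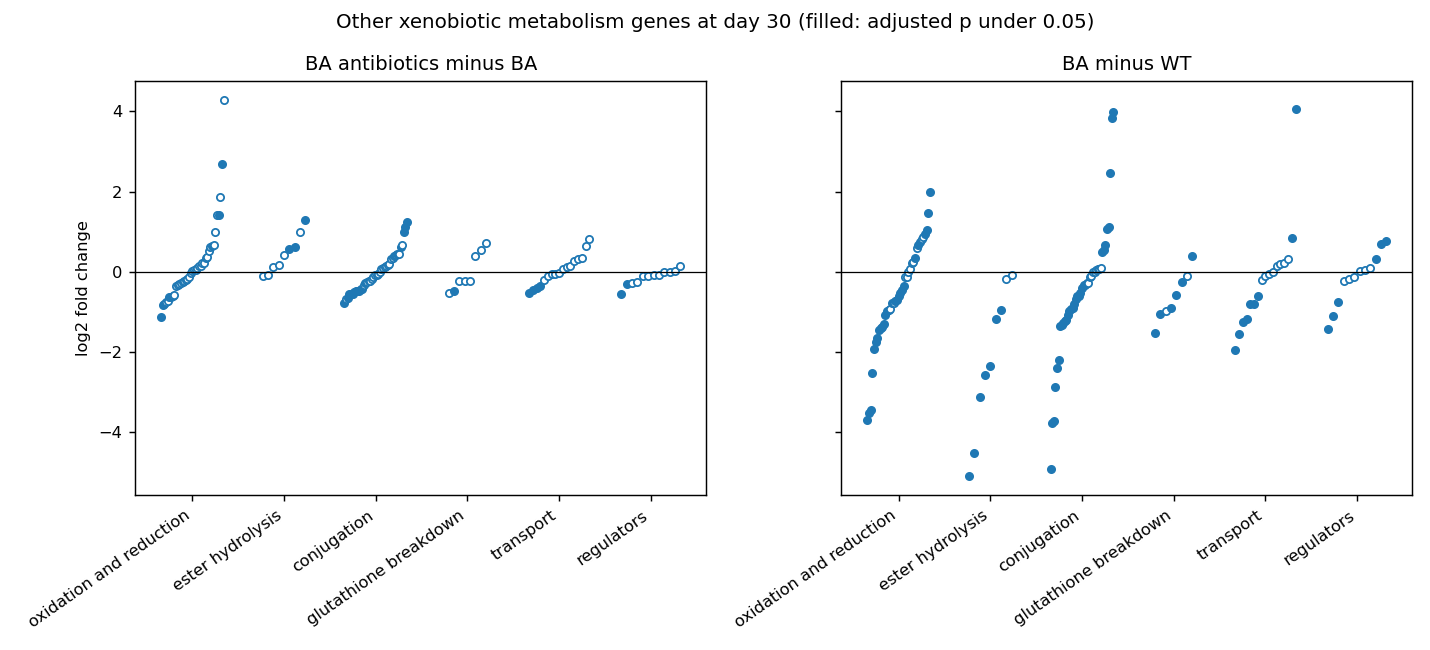
Log2 fold changes of the other xenobiotic metabolism genes with antibiotics (BA antibiotics minus BA) and in BA mice (BA minus WT) at day 30, by list, with 1 point per gene, filled where the adjusted p is under 0.05. With antibiotics 12 genes were called higher and 25 lower, and in BA mice 21 higher and 67 lower.

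Neither loss of Alk5 (0 of 132) nor sulindac (0 of 131) gave a call among these genes in edgeR. In BA tumours 60 of 132 were called, 5 higher and 55 lower (45.5%, against 13.2% of all genes). Among them were 8 of 9 ester hydrolases, all lower (Ces1g -4.33, Aadac -3.49, Ces2b -3.08), Sult1a1 (-4.82), Ugt2b5 (-4.89) and Ugt2b36 (-4.36). The 2 transporters called were higher, Abcc4 (1.59) and Abcb1b, the paralogue of Abcb1a (1.45). With the term for Ddx3y 6 were called. Cyp1b1 rose by 5.50 and Ahr by 0.76, and Ahrr (-2.29) and Ppara (-2.56) fell. After loss of Apc 110 of 136 were called, 10 higher and 100 lower (80.9%, against 54.2%). Cyp2c66 (-5.30), Cyp3a11 (-4.69), Ugt2b5 (-5.59) and Ugt1a1 (-4.65) were among the lowest, and 10 of 12 regulators, Hnf4a and Keap1 excepted, were lower, with log2 fold changes from -1.35 to -0.39. In Apcfl/+ tumours 67 of 141 were called (18 higher and 49 lower, 47.5% against 61.2%), with Ahrr (-3.32), Vdr (-1.73), Nr1i3 (-1.69) and Nr1i2 (-1.21) lower and Ahr (0.56) higher. Between WT colon and WT small intestine 99 of 142 were called (49 higher and 50 lower in colon, 69.7% against 57.4%). Cyp2d34 (7.44), Sult1a1 (6.13), Sult1c2 (5.77) and Ces1g (4.87) were among the highest in colon, and Ugt2a3 (-9.78), Cyp3a11 (-9.68), Nat8 (-7.25) and the export pump Abcc2 (-7.15) among the lowest. For the tumour difference 59 of 143 were called (17 higher and 42 lower), among them Anpep (5.90) and Slc15a1 (4.99) higher and Sult1c2 (-6.55) and Sult1a1 (-5.03) lower.

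The pattern of each member over the 11 group means was compared with that of all other genes by Pearson's r of log2 levels, as a description over 11 points that share libraries. Cyp2c55 was most like Acsf2 (r = 0.984), Sgk2 (0.972) and Sdr42e1 (0.96). Cyp2c65 was most like Rab11fip4 (0.996), Gucd1 (0.99) and the efflux pump Abcg2 (0.984), and Abcb1a most like Slc17a4 (0.965), Rab11fip4 (0.964) and Lrrfip2 (0.964). Among the members the highest r was that of Cyp2c65 with Abcb1a (0.959), followed by Ces2a with Ces2c (0.938) and Cyp3a13 with Cyp1a1 (0.931), and Cyp2c55 with Cyp2b10 was the lowest (-0.686). Ces2a was most like Trim72 (0.958), Ces2c and Vstm5 (0.926), Ces2c like Fmo2 (0.958), Ugt2b36 (0.957) and Zfp983 (0.952), and Ces2e like Gdpd2 (0.973), Gm15331 (0.958) and Me2 (0.958). Cyp2b10 was most like Asah2 (0.989), Slc30a5 (0.986) and Slc5a11 (0.986), and Cyp3a13 like Pcyt1a (0.988), Btnl2 (0.984) and Glyctk (0.977). Cyp1a1 was most like Fmo4 (0.972), Chdh (0.969) and Slc27a2 (0.966), and Ggt1 like Rdh7 (0.963), Gpd1 (0.961) and Nomo1 (0.955).

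In some groups 1 mouse was the lowest for most members. In WT small intestine at day 4 mouse 5 was the lowest of 6 for all 10 members, with a summed enterocyte level of 15501 CPM (23602 to 28711 CPM in the others). In WT small intestine mouse 2 was the lowest of 3 for all 10, with 14417 CPM against 18484 and 25698 CPM. WT proximal colon mouse 3 was the lowest of 3 for 8 of 9 members, with a summed colonocyte level of 18491 CPM (14814 and 27340 CPM in the other 2). The part of these sums was not tested. In other groups the lowest place was spread over mice, as in Apcfl/fl small intestine, where mice 8, 5, 10 and 6 were the lowest for 4, 3, 2 and 1 members, and in BA mice at day 30, where no mouse was the lowest for more than 4 of 9. No correlation between members within groups was computed.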

How the data were processed

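Total RNA of whole intestinal tissue or tumour from 53 mice in 11 groups was sequenced as paired reads of 36 cycles with TruSeq libraries. The authors deposited raw counts per gene for each library, as 1 table of 55421 Ensembl genes (per the file headers, 1 column per library). The submitters' processing notes name FastQC 0.11.8, Trim Galore 0.6.4, HISAT2 2.1.0 and featureCounts 1.6.4, with GRCm38, and the strand setting is not given in the sources used here. Symbols came from GENCODE and were found for 55240 identifiers.

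Each comparison was fitted alone with edgeR 4.0.16 in R 4.3.3 (filterByExpr, TMM factors, robust quasi-likelihood F-test, two-sided, Benjamini-Hochberg adjustment over all genes tested, threshold 0.05). A fold change is given on the log2 scale with SE = |log2 fold change| / √F, and a 95% interval is 1.96 SE on either side. Levels are CPM with 1 set of TMM factors over all libraries, and levels of different genes were compared per kilobase of exon. A count of 0 or up to 3 was read as at the floor. Depth, marker sums and Ddx3y or Gm13394 over 10 CPM were recorded per library. The script was tested on simulated data. Alternatives were DESeq2 1.42.0, RLE factors, no filter on low counts, a replicate block, scaling to epithelial markers, terms for Ddx3y and Gm13394, a fit over all 5 day-30 groups and 75 fits that left out 1 library or 2. No 2 replicates agreed within sampling noise. Labels give separate samples, so p-values measure the spread between these samples, which may in part be technical, and no sequencing batch is named.

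The members and lists were chosen with earlier results of these data known. The rule for names covers every member, the 12 regulators, the marker genes, for each comparison and list up to 3 genes called higher and 3 called lower with the largest fold change (average log2 CPM 1 or more), and the 3 genes most like each member. Of the markers and of the pathway genes under this rule the text names a part and gives the rest as counts. Promoter windows were taken from RefSeq.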

Additional observations from a re-analysis of the deposited data

Results flagged for a closer look

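In groups of 4 to 10 mice, a member was picked out where its highest or lowest mouse stood apart by Dixon's 95% criterion. That was so in 13 of 85 searches, and the 13 cases fall on 5 libraries. Chance gives about 1 in 20 for independent searches. The members of a group share its libraries, so the searches are not independent and nothing is read from the count. BA mouse 5 at day 30, a library used to choose the members, had 844 CPM of Abcb1a (1058 to 1151 CPM in the other 4), given as a description.

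Apcfl/+ tumour 2 was the lowest of its group for Cyp2c65 (4.73 CPM, 50.2 to 89.3 CPM in the others), Cyp3a13 (21.4 CPM, 282 to 412 CPM), Ces2e (56.2 CPM, 292 to 535 CPM) and Ggt1 (12.3 CPM, 140 to 193 CPM). Its summed enterocyte level was 39.9 CPM, against 5434 to 8769 CPM. BA tumour 2 had 28.1 CPM of Cyp2c65 (121 to 143 CPM).

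WT small intestine mouse 5 at day 4 was the lowest for Cyp2b10 (75.6 CPM, 226 to 392 CPM), Ces2a (130 CPM, 623 to 1166 CPM), Ces2e (884 CPM, 1281 to 1512 CPM) and Ggt1 (590 CPM, 761 to 876 CPM). Apcfl/fl mouse 8 at day 4, the library with the lowest Apc level, was the lowest for Cyp3a13 (257 CPM, 573 to 1256 CPM), Ces2c (8.85 CPM, 26.7 to 70.1 CPM) and Abcb1a (28.2 CPM, 73 to 161 CPM).

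The effect in BA tumours minus that in Apcfl/+ tumours differed from 0 by an interaction term for Cyp2b10 (7.29 ± 1.91 on the log2 scale, adjusted p = 0.0109 in edgeR). Cyp2b10 had too few counts for the fit of BA tumours alone, and the colon side of the term rests on 42 reads in tumours and 4 in WT colon, so its size depends on the prior count. Without library 2 of both tumour groups, chosen after seeing the data, it was 5.98 (adjusted p = 0.0776). BA tumours held 0.18 to 2.37 CPM, set against WT colon at 0 to 0.118 CPM. Apcfl/+ tumours held 1.88 to 34.8 CPM, set against WT small intestine at 77.4 to 275 CPM. Tumour type cannot be told apart from tissue and genetic background in this term.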

How the results depend on the processing

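Of the values of members that were tested, 847 of 916 under the alternatives kept their side of the threshold. Of the rest, 37 lost the call and 32 gained it, and no called value changed sign. Values that were not called changed sign in places. Without single libraries, Ggt1 ran from -2.29 to 0.16 in BA tumours and from -0.48 to 2.01 for the tumour difference. Of the values described without a test, 239 of 248 moved by less than the spread between mice. With antibiotics, the count of all genes called was 1340 with the replicate block, 873 with scaling to epithelial markers and 1030 in a fit of all 5 day-30 groups, where 18 pathway genes were called. The near-zero Cyp3a13 value in that comparison became -0.00383 and -0.0589 without antibiotics mouse 1 and 2 and reached 0.17 without mouse 4. In BA mice at day 30, scaling to epithelial markers gave 15810 calls in all, a median of the members of -1.93 and reversed Cyp2c65 (-0.54), Ggt1 (-0.15) and Abcb1a (-0.78). The share of calls that were higher went from 47% to 3.02% there, from 50.6% to 72.2% after Apc loss, from 51.1% to 20.5% in Apcfl/+ tumours, from 52% to 9.53% between WT tissues, from 55.1% to 83.1% for the tumour difference and, with the term for Ddx3y, from 56.5% to 86.3% in BA tumours. For Alk5 loss DESeq2 called 136 genes, 2 pathway genes and 2 members, and the fit without a filter 54 genes. For sulindac DESeq2 called 5 genes and the block 1. In BA tumours DESeq2 called 5 members, scaling to epithelial markers 1 and the term for Ddx3y 0, with 182 genes and 6 pathway genes, and the block 1021 genes and 39 pathway genes. In Apcfl/+ tumours DESeq2 called 8 members, the fit without a filter 2, scaling to epithelial markers 9, and the block 8374 genes. For the tumour difference the block called 3038 genes and 30 pathway genes.

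Without single libraries, all genes called ranged from 1318 (without antibiotics mouse 5) to 2674 (without mouse 3) with antibiotics, from 15 to 30 for Alk5 loss and from 722 (without WT colon 1) to 3668 (without BA tumour 2) in BA tumours, where pathway genes ranged from 37 to 71 and members from 1 to 3. Members called ranged from 2 to 8 in Apcfl/+ tumours and from 1 to 2 for the tumour difference, and the median of the members in BA mice from -1.00 to -0.90. The replicate numbers did not pair the samples, since the correlation of same-numbered deviations ran from -0.442 to 0.227 and in no comparison were all pairs above 0.1, so the block stands here as an alternative. The cause of the shifts above was not tested. Depth left Cyp2b10 at or under the floor in all but 1 library of the colon other than BA tumours, and Cyp1a1 in all 4 BA tumours.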
